A study of Mus musculus with 2 samples.

Results

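Ccl2/Hmox1-low microglia were the retinal microglia in which transcripts of Ccl2, Hmox1, Hcar2 and Socs3 were scarce. The cells were selected on their own counts of unique molecular identifiers (UMIs, each standing for 1 captured transcript). A microglia gate asked for at least 3 UMIs, and at least 15 per 10000 UMIs of the cell, of P2ry12, Tmem119, Gpr34, Olfml3, Sparc and Sall1. Gated cells with 4 or more UMIs of 7 interferon-induced genes (Ifit1, Ifit2, Ifit3, Ifit3b, Isg15, Rsad2 and Oasl1) were set aside as interferon microglia. Cells with fewer than 10 UMIs of Ccl2, Hmox1, Hcar2 and Socs3 per 10000 were kept, and the gated cells at or above that limit are called activated microglia here. In all, 882 of 4385 cells were kept.

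The 2 libraries came from B6 mice aged 8 to 10 months with microbead-induced glaucoma, in which microbeads are placed in the front of the eye and block its drainage. One library was from mice given PBS and the other from mice given Igfbpl1, a protein named for its likeness to insulin-like growth factor binding proteins. Each was made from CD45+ cells sorted by flow cytometry from the dissociated retinas of 10 mice and prepared with a 10x 3' kit. Dose, route and time of treatment are not given in the sources used here. With 1 library per treatment and no untreated retina, the libraries' differences have no replicate check, and treatment, pool of mice and library cannot be told apart. Where 2 values are given without a library, the first is from the PBS and the second from the Igfbpl1 library. Intervals given below are 95% intervals and cover counting error only.

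Microglia are the resident macrophages of the retina and brain. In undisturbed tissue they carry a homeostatic programme that includes the purine receptors P2ry12 and P2ry13 and the fractalkine receptor Cx3cr1, and that depends on TGF-beta signalling and on the transcription factor Sall1. In injury they can lower these genes and make chemokines, cytokines, Apoe and antigen-presenting MHC class II molecules. Among the 4 genes of the activation limit, Ccl2 attracts monocytes, Hmox1 breaks down haem, Hcar2 is a receptor for hydroxy-carboxylic acids and Socs3 restrains cytokine receptors.

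The kept cells numbered 500 of 1055 in the PBS library and 382 of 3330 in the Igfbpl1 library, and the libraries shared 0 cell barcodes. They held 1820238 UMIs in the PBS library and 862081 in the Igfbpl1 library, with a median of 3459 and 1958 UMIs per cell and of 1695 and 1046.5 genes. The shallower cells were in the Igfbpl1 library, where 205 kept cells had under 2000 UMIs against 31 in the PBS library. Mitochondrial UMIs made up a median of 1.09% and 1.22%. The mix of sexes also differed: among all cells with UMIs of Xist or of 4 Y-linked genes but not both, 66.2% were Y-only in the PBS library and 26.6% in the Igfbpl1 library. In the kept cells these shares were 59.7% and 52.9%. Scrublet, a doublet caller, marked 5 and 12 of the kept cells, and they stayed in the values below.

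The microglial part of the name held for nearly all kept cells. Transcripts of 7 microglial genes that the rule did not use (Cx3cr1, Csf1r, Selplg, Siglech, Fcrls, P2ry13 and Crybb1) summed to 7857 counts per 1000000 UMIs (CPM) of the kept cells in the PBS library and 5225 in the Igfbpl1 library. At least 3 UMIs of them were found in 99.4% and 93.5% of the cells. All but 2 of the marker lists of other cells summed to at most 243 CPM in each library. Those of Muller glia and astrocytes summed to 3919 and 6765 CPM, of which Apoe, a gene that microglia make too, gave 5900 of 7133 and 5035 of 5832 UMIs. Part of these Apoe UMIs came from cells that went against the label, given in the next paragraph. Those of plasmacytoid dendritic cells summed to 1629 and 1247 CPM and were led by Siglech, which is a microglial gene as well. All 5 red blood cell genes were at 0 in the PBS library, as were 7 of 8 neutrophil genes, and monocyte markers summed to 12.1 CPM in the PBS library and 222 in the Igfbpl1 library. At least 3 UMIs of the monocyte markers were found in 2 cells of the PBS library and in 13 of the Igfbpl1 library.

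A small group of kept cells went against the label. Clustering the kept cells without the 17 rule genes gave 34 cells (sub-cluster 6) led by Clu, Mgarp, Nlgn1, Lsamp, Acsl3 and Trpm3, in which P2ry12 stood at 142 CPM and Cx3cr1 at 199 CPM, while Sparc stood at 1579 CPM. In the same cells Apoe stood at 19958 CPM. A further 6 cells (sub-cluster 3) were led by Igkc, Cd79a, Ebf1 and other B cell genes. Together these were 11 cells of the PBS and 29 of the Igfbpl1 library, and several results are given with and without them. Without them, the genes measured in the kept cells that were 1.5-fold higher in the Igfbpl1 than in the PBS library numbered 105 in place of 118, and those lower 145 in place of 168. Apoe then had 5497 UMIs in the PBS and 3991 in the Igfbpl1 library, in place of 5900 and 5035. In 3 and 9 kept cells, Sparc was the only gate gene with a UMI. Fewer than 3 gate UMIs remained without Sparc in 5 of the 500 kept cells of the PBS library and in 31 of the 382 of the Igfbpl1 library. No UMI of P2ry12 or Tmem119 was found in 6 and 49, so weakly marked cells were more frequent in the shallower Igfbpl1 library.

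By heat shock and immediate early genes, the word quiet held within each library but not across them. Cells were thinned to 1000 UMIs each to compare them at equal depth. The median kept cell of the PBS library then had 10 UMIs of heat shock genes and 14 of immediate early genes, and the median kept cell of the Igfbpl1 library 15 and 23. Activated microglia of the PBS library had medians of 13 and 19, and those of the Igfbpl1 library 25 and 28. By these medians the kept cells were below the activated cells of their own library, but those of the Igfbpl1 library stood above the activated cells of the PBS library. The cells are therefore named here by their rule.

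**Figure D1:**
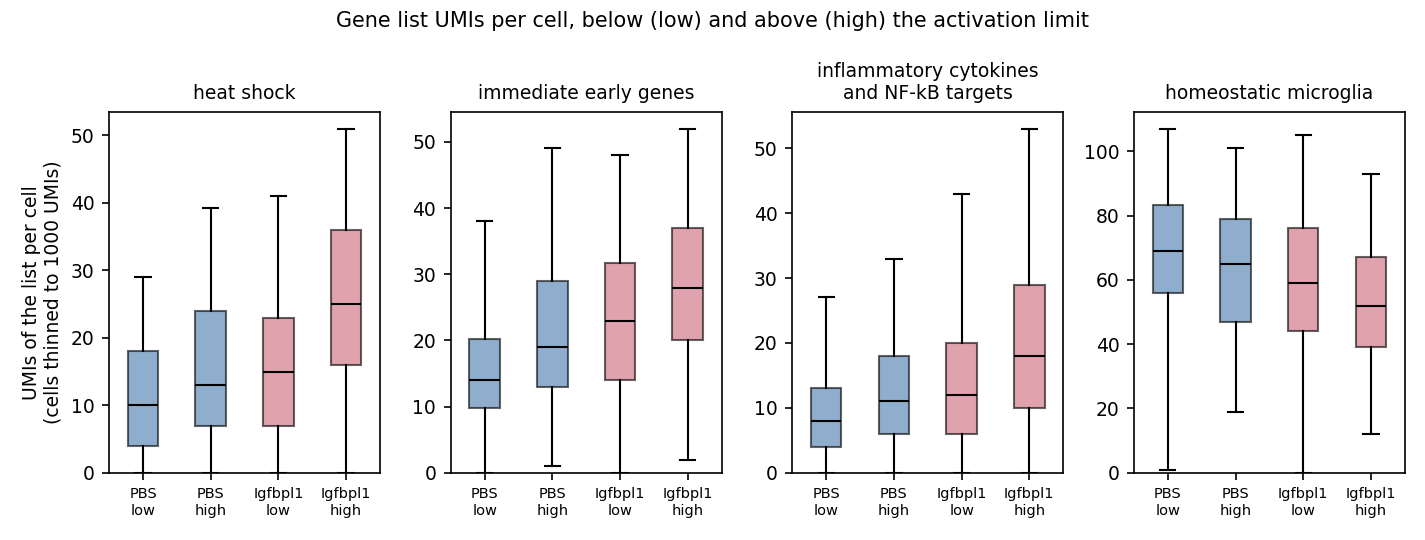
UMIs per cell of 4 gene lists after thinning each cell to 1000 UMIs, in kept cells (low) and activated microglia (high) of the PBS and Igfbpl1 libraries; boxes give the quartiles and the median, whiskers the lowest cell and the 95th percentile. For heat shock genes the medians are 10 and 13 in the PBS library and 15 and 25 in the Igfbpl1 library, and for homeostatic genes 69, 65, 59 and 52 in the order drawn.

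The activation limit divided the 2 libraries unevenly, which is a description of the rule. Kept cells were 65.0% (61.5 to 68.4) of the 769 gated microglia of the PBS library and 24.3% (22.2 to 26.5) of the 1570 of the Igfbpl1 library. As a share of all sorted cells they were 47.4% and 11.5%. Among Xist-only gated cells the kept share was 77.7% (146 of 188) in the PBS and 19.1% (105 of 550) in the Igfbpl1 library. Among Y-only cells it was 59.5% (216 of 363) and 27.5% (118 of 429). The PBS library thus had the larger kept share within each sex set, and also within each of 4 depth ranges: 59.6% against 28.2% in cells of 1000 up to 2000 UMIs, 69.4% against 21.98% up to 3000, 65.2% against 17.4% up to 5000 and 59.3% against 26.4% from 5000 UMIs. Thinning every cell to 1000 UMIs before applying the rule gave 55.4% and 20.3%.

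**Figure D2:**
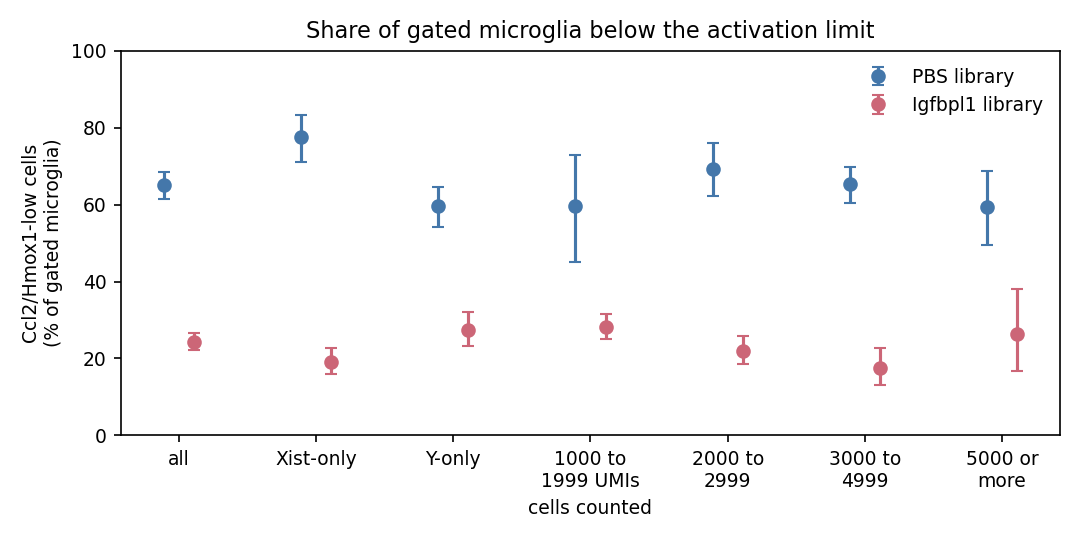
Kept cells as a percentage of gated microglia in the PBS and Igfbpl1 libraries, for all gated cells, for Xist-only and Y-only cells and for 4 ranges of UMIs per cell; points are shares and bars exact binomial 95% intervals. The PBS points lie between 59.3% and 77.7% and the Igfbpl1 points between 17.4% and 28.2%.

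The limit was a cut through a continuous range. The median rate of the 4 activation genes was 3.0 per 10000 in kept cells of the PBS library and 3.66 in those of the Igfbpl1 library, against 18.8 and 32.1 in activated microglia. None of the 4 genes had a UMI in 191 (38.2%) and 167 (43.7%) of the kept cells, and 118 and 138 cells had 1 UMI. Rates of 8 to 10, just inside, were found in 57 and 48 cells, and 40 and 61 activated cells lay at 10 to 12, just outside. Ccl2 stood at 65.9 and 59.2 CPM in the kept cells, and at 1110 and 2096 in activated microglia. Hmox1 stood at 126 and 104 CPM in kept cells and at 551 and 1216 in activated ones. The 6 gate genes were also used by the rule, so their levels are a description: P2ry12 stood at 1627 and 889 CPM and Tmem119 at 777 and 443 CPM. Olfml3 stood at 849 and 856 CPM.

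Apart from the 17 rule genes, few genes separated kept from activated microglia by 1.5-fold in both libraries. A gene was measured where its mean over the 2 samples compared was at least 50 CPM with at least 20 UMIs, and called higher or lower past 1.5-fold on the log2 scale of CPM plus 10. In the PBS library 33 of 3436 measured genes (0.96%) were higher in kept cells and 38 (1.11%) lower. In the Igfbpl1 library 47 of 3237 (1.45%) were higher and 44 (1.36%) lower. In both libraries 1 gene of 3062 (0.0327%) was higher, the transcript 8030442B05Rik, and 9 (0.294%) were lower. The activation limit chose the cells on this contrast, so these counts are a description.

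Of the 9 genes lower in kept cells, 8 have known roles, in inflammation, stress, lipid transport and the cytoskeleton. Apoe, which carries lipids out of cells, stood at 3241 CPM in kept and 8799 in activated cells of the PBS library, and at 5841 and 10386 in the Igfbpl1 library. Il1b, the interleukin 1 beta precursor, stood in kept and activated cells at 64.8 and 164 CPM (PBS library) and at 311 and 668 CPM (Igfbpl1 library). Gadd45b, a stress-induced gene, stood in kept and activated cells at 90.6 and 238 CPM (PBS library) and at 110 and 219 CPM (Igfbpl1 library). Each of the 3 was lower in kept cells within its library, but Il1b in kept cells of the Igfbpl1 library stood above its level in activated cells of the PBS library. Cells with B cell genes in the Igfbpl1 library also held Il1b, as given below, so that step across libraries is not read as a difference. The mix of sexes differed between the classes. In the PBS library 59.7% of kept and 77.6% of activated cells were Y-only, and in the Igfbpl1 library 52.9% and 44.2%. Its part in these gaps was not tested. The other 5 were the chaperone genes Dnajb1 and Hspe1, the mRNA decay factor Zfp36, the kinase Map3k8 and the myosin Myo1e. The ninth, Gm17268, is annotated on the minus strand at chr11:82028224-82038562 (GENCODE M21, GRCm38) across the whole of Ccl2 (plus strand, chr11:82035571-82037453), so its reads may not be separable from a rule gene; it is named after its value was seen.

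**Figure D3:**
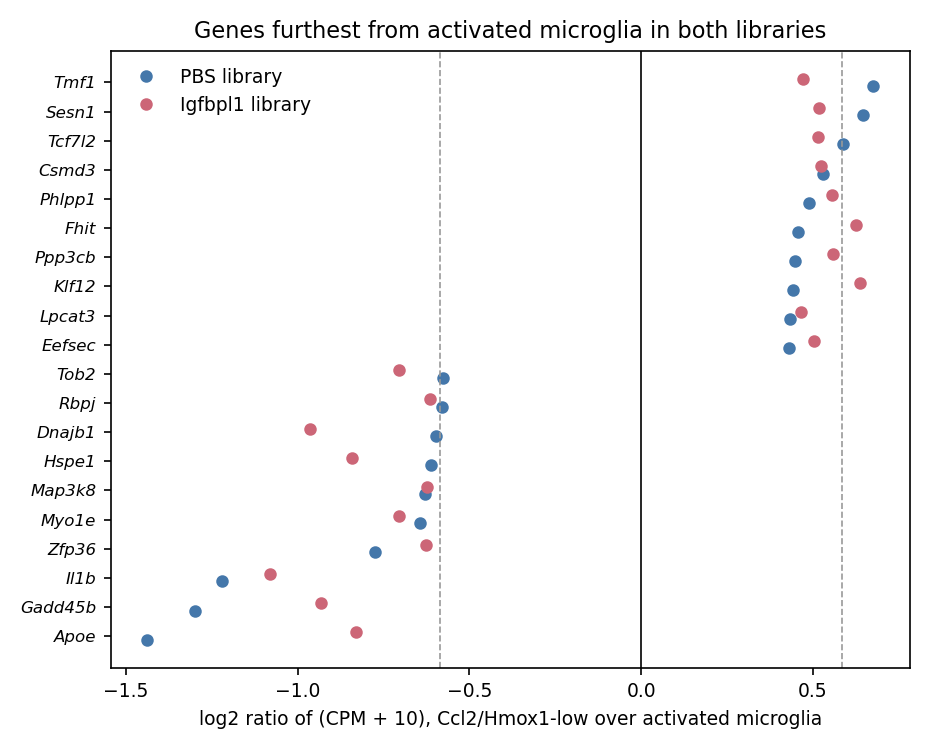
Log2 ratio of CPM plus 10 between kept cells and activated microglia for the 10 named genes furthest in each direction in both libraries; each point is 1 library, and dashed lines mark 1.5-fold. Apoe is lowest in the PBS library at -1.44 and stands at -0.83 in the Igfbpl1 library, and none of the 10 genes on the right passes 1.5-fold in both.

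Genes on the higher side of kept cells differed by less. Sesn1, a stress-induced inhibitor of growth signalling, stood at 129 CPM in kept and 78.9 in activated cells of the PBS library and at 107 and 71.5 CPM in the Igfbpl1 library. Tcf7l2, a transcription factor of Wnt signalling, stood in kept and activated cells at 125 and 80.0 CPM (PBS library) and at 90.5 and 60.3 CPM (Igfbpl1 library). Of all measured genes, 1.11% in the PBS and 1.36% in the Igfbpl1 library were lower in kept cells. By list, the PBS library had 6 of 20 immediate early genes, 4 of 19 inflammatory genes and 2 of 14 heat shock genes lower. The Igfbpl1 library had 1 of 21, 3 of 20 and 6 of 14 lower. Of 30 homeostatic genes 0 passed 1.5-fold in either library. With 0.96% and 1.45% of all measured genes higher in kept cells, that count is near the share of all genes. In the PBS library 26 and in the Igfbpl1 library 22 of them had a log2 ratio above 0, with medians of 0.13 and 0.07, against 0.035 and 0.046 for all measured genes.

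The kept cells of the 2 libraries differed from each other at more genes. Of 3391 measured genes, 118 (3.48%) were higher in the Igfbpl1 library and 168 (4.95%) lower, and the median log2 ratio of all measured genes was -0.10. When the libraries were scaled by the median ratio of all genes in place of the UMI total, 176 were higher and 77 lower, so that the higher genes made up 69.6% of the calls in place of 41.3%. Calls in the kept cells recurred in part in the activated microglia of the same libraries: of the 3139 genes measured in both classes, 59 were higher and 55 lower in both, 50 were higher and 92 lower in the kept cells alone, 44 were higher and 105 lower in the activated cells alone, and 0 were called in opposite directions. The shared higher genes were 54.1% of those called in kept and 57.3% of those called in activated cells, and the shared lower genes 37.4% and 34.4%. The difference between the classes in these ratios was not tested.

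**Figure D4:**
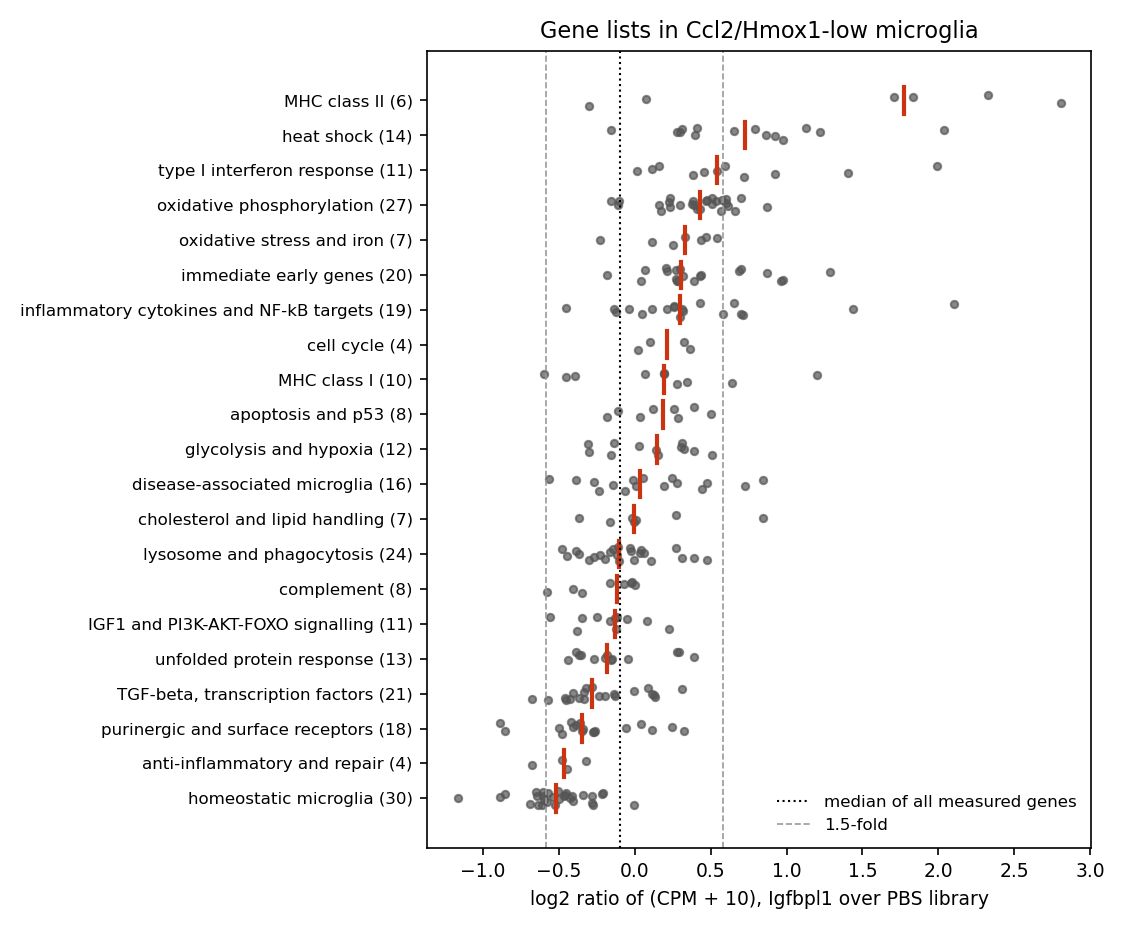
Log2 ratio of CPM plus 10 between the Igfbpl1 and PBS libraries in kept cells, for each measured gene (points) of each list with at least 4 measured genes (number in brackets); red bars are list medians, the dotted line the median of all measured genes and dashed lines 1.5-fold. MHC class II genes lie highest, with a median of 1.77, and homeostatic genes lowest, with a median of -0.51.

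Homeostatic microglial genes were lower in the kept cells of the Igfbpl1 library. All 30 genes of the list were measured, 11 were lower, against 4.95% of all measured genes, 0 were higher, and the median log2 ratio was -0.51. Slc2a5, a fructose transporter, stood at 148 and 60.3 CPM, a ratio of 0.408 (0.297 to 0.551). P2ry13, an ADP receptor, stood at 320 and 168 CPM, a ratio of 0.526 (0.435 to 0.632). Siglech, a sialic acid binding lectin, stood at 992 and 545 CPM, a ratio of 0.549 (0.495 to 0.609). The remaining 8 were Serinc3, Vsir, Cd164, Selplg, Rnase4, Tmem173, Adgrg1 and Crybb1.

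Some abundant homeostatic genes were lower by less than 1.5-fold. Cx3cr1 stood at 3114 and 2248 CPM, a ratio of 0.722, and Csf1r, the receptor on which microglia depend to survive, at 1672 and 1118 CPM, a ratio of 0.669. All 30 homeostatic genes had a log2 ratio below 0. The median was -0.63 in Xist-only and -0.48 in Y-only cells. The number past 1.5-fold depended on the setting. It was 4 with median-ratio scaling, with a gate of 30 per 10000 or with a gate that left out Sparc. It was 5 after thinning with the rule applied again, 7 without the cells marked as doublets, and 11 without sub-clusters 3 and 6. Activated microglia showed the same side, with 10 of 30 lower and 0 higher.

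Transcription factors and receptors of the microglial programme had smaller differences. Of 21 measured genes of TGF-beta signalling and microglial transcription factors, 1 was lower (Maf, 459 and 283 CPM) and 0 higher, with a median log2 ratio of -0.28. That count is near the 4.95% of all measured genes that were lower. Tgfbr1, the kinase receptor for TGF-beta, stood at 1490 and 999.9 CPM. Mef2c, a transcription factor of microglial identity, stood at 1697 and 1392 CPM. Of 18 purinergic and other surface receptors, 2 were lower, against 4.95% of all measured genes. They were P2ry13 and Siglech, which the homeostatic list also holds. Trem2, a lipid-sensing receptor, stood at 2361 and 1962 CPM, and its adaptor Tyrobp at 2380 and 2818 CPM.

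Heat shock genes were higher in the kept cells of the Igfbpl1 library. These chaperones refold or hold damaged proteins and are induced by heat, dissociation and other stress through heat shock factor 1, which binds inverted repeats of GAA. Of 14 measured members 8 were higher and 0 lower, with a median log2 ratio of 0.73, against 3.48% of all measured genes. Hspb1 encodes a small heat shock protein and stood at 97.2 CPM (177 UMIs) in the PBS library and 430 CPM (371 UMIs) in the Igfbpl1 library, a ratio of 4.43 (3.69 to 5.32). The 5 richest cells held 39.5% and 35.3% of its UMIs, so few cells carried much of this gene. Hspe1, the mitochondrial co-chaperonin, stood at 424 and 940 CPM, a ratio of 2.22 (2.01 to 2.45). Dnajb1, a partner of Hsp70, stood at 287 and 681 CPM, a ratio of 2.37 (2.11 to 2.68).

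Not all chaperones took part. Hspa8 (1019 and 2017 CPM), Hsph1 (422 and 810 CPM), Dnaja1 (553 and 1016 CPM), Hspd1 (186 and 331 CPM) and Hsp90aa1 (1346 and 2125 CPM) made up the rest of the 8. The most abundant members, the Hsp70 genes Hspa1a and Hspa1b, were called neither: Hspa1a stood at 3372 and 4143 CPM, a ratio of 1.23, and Hspa1b at 2540 and 2279 CPM, a ratio of 0.897. Hspa1a and Hspa1b are near-identical copies, so the division of reads between them is uncertain. The count of higher heat shock genes stayed between 7 and 11 in the 17 alternatives tried. It was 11 in Xist-only cells and 7 in Y-only cells. In activated microglia 10 of 14 were higher.

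Promoters of 3 heat shock genes, chosen after their values were seen, show the sequence such factors can bind. The 250 bases before the start of each gene, on its own strand, are from RefSeq (GRCm38.p6), with capitals marking GAANNTTC, an inverted pair of GAA repeats that reads the same on both strands. Hspb1 and Hspe1 were called higher in the Igfbpl1 library and Hspa1a was not.
Hspb1, chr5:135887669-135887918, plus strand: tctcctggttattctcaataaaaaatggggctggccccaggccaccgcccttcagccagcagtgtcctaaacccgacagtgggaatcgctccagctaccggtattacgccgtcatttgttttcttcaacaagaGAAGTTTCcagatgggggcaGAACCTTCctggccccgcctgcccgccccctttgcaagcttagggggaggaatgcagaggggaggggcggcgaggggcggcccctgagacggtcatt
Hspe1, chr1:55087898-55088147, plus strand: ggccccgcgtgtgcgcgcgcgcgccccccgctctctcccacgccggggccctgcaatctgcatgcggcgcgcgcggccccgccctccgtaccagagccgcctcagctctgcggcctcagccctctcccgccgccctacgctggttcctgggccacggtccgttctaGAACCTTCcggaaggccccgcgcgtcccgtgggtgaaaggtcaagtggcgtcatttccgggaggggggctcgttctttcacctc
Hspa1a, chr17:34972157-34972406, minus strand: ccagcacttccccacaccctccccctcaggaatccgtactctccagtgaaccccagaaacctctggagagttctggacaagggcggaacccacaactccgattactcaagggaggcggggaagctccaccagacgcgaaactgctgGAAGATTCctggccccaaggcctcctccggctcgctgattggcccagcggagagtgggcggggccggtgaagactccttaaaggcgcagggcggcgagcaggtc
The matches start 117 and 97 bases before the start of Hspb1, 84 before that of Hspe1 and 104 before that of Hspa1a. This motif was present in 6.69% of the 32851 promoter windows of that length. Counted by gene, 2088 of 27025 genes (7.73%) had at least 1 window with it. RefSeq windows were matched for 11 of the 15 heat shock genes, and 6 of the 11 had at least 1 match. Among genes called higher 4 of 6 had a match, and among those called neither 2 of 5.

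Immediate early genes were higher by count but unevenly. These transcription factors and regulators are switched on within minutes of a stimulus, including tissue dissociation. Of 20 measured genes 6 were higher, against 3.48% of all measured genes, and 0 lower, with a median log2 ratio of 0.31. Atf3 stood at 981 and 2403 CPM, a ratio of 2.45 (2.30 to 2.61). Dusp1, which switches off MAP kinases, stood at 479 and 951 CPM, a ratio of 1.99, and Fos at 1530 and 2812 CPM, a ratio of 1.84 (1.74 to 1.94). Nr4a1, Klf2 and Klf4 were the other members called higher. Jun, the most abundant, was not, at 3077 and 3748 CPM. The difference was larger in Xist-only cells, where the median log2 ratio was 0.77, than in Y-only cells, where it was 0.21, and that gap was not tested.

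Of 19 measured inflammatory genes, 5 were higher in the Igfbpl1 library, against 3.48% of all measured genes, and 0 lower, with a median log2 ratio of 0.30. Il1b stood at 64.8 CPM (118 UMIs) in the PBS and 311 CPM (268 UMIs) in the Igfbpl1 library, a ratio of 4.80 (3.85 to 6.01). It was 5.66 in Xist-only and 4.25 in Y-only cells. At 1000 UMIs per cell Il1b was found in 2.8% of kept cells of the PBS library and in 11.0% of those of the Igfbpl1 library. In retinal neurons of the same libraries (median of 2761 and 2057 UMIs before thinning), which should lack Il1b, it was found in 0% and 1.67%, and in cells with B cell genes (2235 and 1646.5 UMIs) in 0% and 29.4%. The share in the Igfbpl1 library was thus above that in neurons and below that in B-like cells, and it is not read as a difference.

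Chemokines of the list were mixed. Ccl12 stood at 835 and 2276 CPM, a ratio of 2.73 (2.55 to 2.92). Ccl4, a chemokine that many stimulated microglia make, stood at 4038 and 6057 CPM, a ratio of 1.5 that did not pass the limit once 10 CPM were added. Tnf was at 211 and 191 CPM, a ratio of 0.907, but its log2 ratio was 0.46 in Xist-only and -0.44 in Y-only cells. Ccrl2, Cxcl16 and Icam1 were the other members called higher. In Y-only cells the median log2 ratio of the list was near 0, at -0.0029, and in Xist-only cells it was 0.78.

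Interferon-induced genes outside the rule were higher in part. The interferon limit removed cells with 4 or more UMIs of 7 such genes, so the kept cells hold low levels by choice. Of 11 measured genes that the limit did not use, 5 were higher, against 3.48% of all measured genes, and 0 lower, with a median log2 ratio of 0.54. Ifi27l2a stood at 215 and 886 CPM, a ratio of 4.12 (3.64 to 4.66), and Ifitm3, which blocks virus entry, at 139 and 385 CPM, a ratio of 2.77 (2.35 to 3.28). Lgals3bp, Xaf1 and Ifi204 were the others. In Y-only cells 1 of 9 measured genes was higher, and in Xist-only cells 10 of 12. Of all measured genes, 214 of 3450 (6.2%) were higher in Y-only and 366 of 3439 (10.6%) in Xist-only cells, and the gap between the sets was not tested. Interferon microglia themselves were 14.0% of Xist-only and 4.43% of Y-only gated cells in the Igfbpl1 library, and 2.13% and 4.13% in the PBS library.

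MHC class II genes had the highest median log2 ratio among the lists with at least 4 measured genes, and few cells carried most of their UMIs. H2-Eb1, a chain of the antigen-presenting molecule, stood at 37.9 and 326 CPM, a ratio of 8.60 (6.59 to 11.4). H2-Aa stood at 36.8 and 225 CPM, H2-Ab1 at 78.0 and 277 CPM, and Cd74, the invariant chain, at 155 and 579 CPM. The 5 richest cells held 57.7% of the UMIs of these 4 genes in the PBS and 59.5% in the Igfbpl1 library. At least 3 UMIs of the 4 were found in 22 and 44 kept cells. Of the 6 measured genes of the list 4 were higher, against 3.48% of all measured genes. In activated microglia 4 of 6 were higher too, with a median log2 ratio of 2.49 against 1.77 in kept cells. With each cell given equal weight 4 were higher, and the log2 ratio of H2-Eb1 was 2.09. When cells were thinned to 1000 UMIs and the rule was applied again, a different set of cells was kept. In those 1 gene was higher, and the log2 ratio of H2-Eb1 was 0.07. In the cells kept before thinning, the mean at 1000 UMIs was 0.59 and 1.17 UMIs of the list. Without sub-clusters 3 and 6, the ratio of H2-Eb1 was 11.0 and that of H2-Aa 8.34. Without the cells marked as doublets the log2 ratio of H2-Eb1 was 1.71 in place of 2.81, that of H2-Aa 1.46 in place of 2.33, and the median of the list 1.21 in place of 1.77.

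B cells, which also carry MHC class II transcripts, had markers that summed to 243 CPM in the kept cells of the PBS library and 203 CPM in those of the Igfbpl1 library. At least 3 UMIs of B cell markers were found in 38 and 6 cells. Dendritic cell markers summed to 7.69 and 33.6 CPM. The part of such cells in the MHC class II ratio was not tested. H2-DMa and H2-DMb1, which load peptides in the same pathway, were called neither, at 241 and 254 CPM and at 104 and 82.4 CPM.

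MHC class I genes, oxidative phosphorylation genes and Apoe differed less uniformly. Of all measured genes, 3.48% were higher and 4.95% lower in the Igfbpl1 library. Of 10 measured class I genes 2 were higher (H2-Q7 and Psmb9) and 1 lower (Tap2). H2-Q7 shares much sequence with its neighbours, so its 42.3 and 110 CPM are uncertain. Of 27 oxidative phosphorylation genes 6 were higher, against 3.48% of all measured genes, and 0 lower, with a median log2 ratio of 0.43. The count of higher genes ranged from 2 to 12 over the alternatives. It was 3 without sub-clusters 3 and 6. Cox8a, a subunit of cytochrome c oxidase, stood at 570 and 869 CPM, a ratio of 1.52, and Ndufc1, of complex I, at 91.2 and 175 CPM, a ratio of 1.92.

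Apoe was the most variable gene among the kept cells. It stood at 3241 and 5841 CPM, a ratio of 1.80 (1.74 to 1.87). The ratio was 9.36 in Xist-only cells (772 and 7226 CPM) and 1.30 in Y-only cells (3377 and 4401 CPM). Without sub-clusters 3 and 6 it was 1.61. In the PBS library 5 cells held 38.6% of the Apoe UMIs. Thinned to 1000 UMIs, 26.8% and 52.4% of kept cells had an Apoe UMI, against 32.9% and 60.3% of B-like cells and 15.5% and 35.8% of retinal neurons, so the share of cells with Apoe is not read as expression. Among 16 measured genes of disease-associated microglia, Apoe and Csf1 were higher, 0 were lower and the median log2 ratio was 0.03. Of all measured genes, 3.48% were higher.

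Several other programmes had 0 genes called. Of all measured genes 3.48% were higher and 4.95% lower, so 0 calls in lists this short do not show a lack of change. Complement (8 measured genes), lysosome and phagocytosis (24), the unfolded protein response (13), glycolysis and hypoxia (12), apoptosis and p53 (8), oxidative stress and iron (7) and cell cycle (4) had 0 genes past 1.5-fold in either direction. Their medians were not all alike: the median log2 ratio was 0.33 for oxidative stress and iron, 0.21 for cell cycle and 0.19 for apoptosis and p53, against -0.10 for all measured genes. The complement genes C1qa (7553 and 7474 CPM) and C1qb (6929 and 6813 CPM) had ratios of 0.99 (0.961 to 1.02) and 0.983 (0.953 to 1.01). Igfbpl1 itself was not listed in either library's table. Igf1r, the receptor for insulin-like growth factor 1, stood at 81.9 and 87.0 CPM, a ratio of 1.06 (0.794 to 1.41), with a log2 ratio of -0.31 in Xist-only and 0.52 in Y-only cells. Of 11 measured genes of IGF1 and PI3K-AKT-FOXO signalling, 0 were called, which for the same reason is not read as a lack of change.

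Single genes of the largest ratio, apart from those above, included Wfdc17, a secreted inhibitor made by macrophages, at 44.0 and 239 CPM, a ratio of 5.44 (4.18 to 7.13). Ccl5, a chemokine for T cells, stood at 119 and 572 CPM, a ratio of 4.80 (4.08 to 5.65), and 5 cells held 55.8% and 50.9% of its UMIs. The ratio of Ccl5 was 13.1 in Xist-only and 2.08 in Y-only cells and 4.24 without sub-clusters 3 and 6, and its log2 ratio was 1.51 in place of 2.17 without the cells marked as doublets. T cells and NK cells also make Ccl5: T cell markers summed to 47.8 and 104 CPM and NK cell markers to 1.10 and 60.3 CPM, and their part in the ratio was not tested. Crip1, at 30.2 and 164 CPM, had a ratio of 5.41. Its log2 ratio of 2.11 was 0.84 after thinning with the rule applied again, 1.35 with a gate of 30 per 10000 and 1.5 without the cells marked as doublets. Monocyte markers, at 12.1 and 222 CPM, moved with it, and their part was not tested. Clu and Mgarp lay mostly in sub-cluster 6. Clu stood at 35.7 and 190 CPM with all 65 UMIs of the PBS library in 4 cells, and without sub-clusters 3 and 6 it had 1 and 18 UMIs. Mgarp had 10 and 26 UMIs without them. With a gate that left out Sparc, the log2 ratio of Clu was 0.27 in place of 2.13.

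On the lower side the largest ratios were near 0.4 to 0.5 and rested on fewer UMIs. Cmss1 stood at 147 and 55.7 CPM, a ratio of 0.378 (0.272 to 0.516), and Arl1, a small GTPase of the Golgi, at 72.5 and 29.0 CPM, a ratio of 0.40 (0.25 to 0.617). Sort1, a sorting receptor, stood at 127 and 55.7 CPM, a ratio of 0.437. Hes1, a target of Notch, stood at 70.3 and 30.2 CPM (a ratio of 0.309, with 16 UMIs in the Igfbpl1 library, without sub-clusters 3 and 6), and Ccnd1, cyclin D1, at 86.2 and 42.9 CPM. Adap2os, Nek6, Cep68 and Eef2k completed the 10 named. In the Igfbpl1 library the 10 genes had between 25 and 52 UMIs each.

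**Figure D5:**
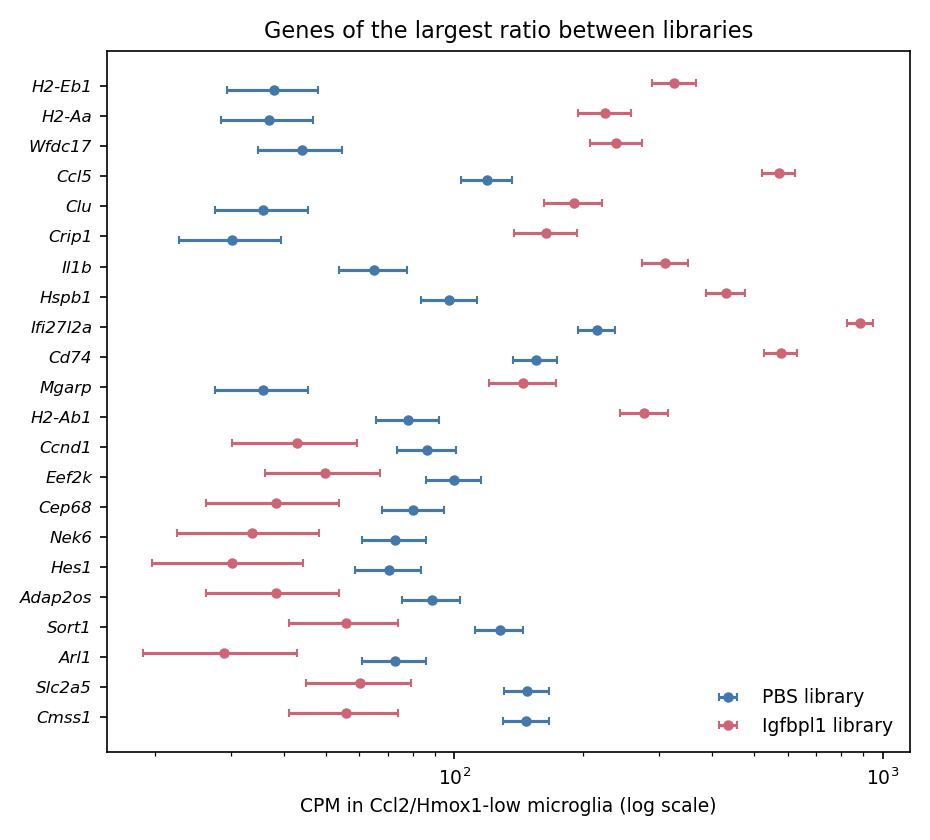
CPM of the genes with the largest ratio between libraries in kept cells, 12 higher and 10 lower in the Igfbpl1 library, on a log axis; bars are exact Poisson 95% intervals. H2-Eb1 stands at 37.9 CPM in the PBS and 326 in the Igfbpl1 library and Cmss1 at 147 and 55.7; the genes were chosen for their ratio, and the bars cover counting error only.

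Kept cells varied among themselves in a few genes. At 1000 UMIs per cell the Fano factor (variance over mean, which is 1 for pure counting) had a median of 1.05 in the PBS and 1.06 in the Igfbpl1 library. Apoe had the highest Fano factor in each, at 56.6 and 34.7. Cst3, the most abundant homeostatic transcript, had 8.40 and 12.3, Ccl4 7.83 and 11.6 and Ccl5 8.44 and 10.2. Spp1, made by phagocytic microglia, had 15.9 in the PBS library, where all of its 23 UMIs lay in at most 5 cells. Hspb1 had 2.16 in the PBS and 7.60 in the Igfbpl1 library.

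Besides sub-clusters 3 and 6, clustering without the rule genes gave 5 groups of kept cells, given by number. Sub-cluster 0 (244 cells) was led by Klf12, Fhit, Rtn1 and Slc24a3, with Cx3cr1 at 3365 CPM and Fos at 971 CPM. Sub-cluster 1 (254 cells) was led by Apoe, Cd74, Ccl5, Ifitm3 and Ifi27l2a, with Cx3cr1 at 2412 CPM and Fos at 2449 CPM. Sub-cluster 2 (158 cells) was led by Ltc4s, Cst3, Klk8 and Cd68, with Fos at 976 CPM. Sub-cluster 4 (153 cells) was led by Hsph1, Atf3 and Fos, with Fos at 3304 CPM, and sub-cluster 5 (33 cells) by Gadd45b, Arl4d and Dynll1, with Fos at 4094 CPM. Of the 33 cells of sub-cluster 5, 32 came from the PBS library, so it may be a feature of that library and not a kind of cell. Since the leading genes themselves differed between the libraries, the sizes of the sub-clusters are not compared.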

How the data were processed

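The authors deposited raw UMI counts of 15579 genes for the PBS and 17273 for the Igfbpl1 library. Per the submitters' processing notes, Cell Ranger 3.1 and the mm10 build were used. The cell filter and annotation are not given in the sources used here, and no cell type names were used. Columns of other samples numbered 0. The members, the gene lists and the named-gene rule were chosen with earlier results of these data known.

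Counts were read with pandas 2.3.3 under Python 3.11.15, summed over the cells of a class and given as CPM. Intervals were exact (scipy 1.17.1): Poisson for CPM, Clopper-Pearson for shares, conditional binomial for ratios. There was no test with 1 library per group. Measured genes needed a mean of 50 CPM, a filter that treats both libraries alike. A gene near that level in one library passes more easily when it is higher than when it is lower in the other. The calculations were tested on simulated data. Doublets were called with Scrublet in scanpy 1.11.5 and kept. Kept cells were clustered by the Leiden method (igraph 0.11.9, resolution 0.5, seed 0, 1500 variable genes, 20 components, 15 neighbours). Thinning drew 1000 UMIs per cell (seed 2). Where thinning was an alternative setting, the rule was applied again to the thinned counts, so the cells kept were not the same.

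Named genes were at most 12 a direction of at least 2-fold with 50 UMIs, at most 10 a direction between kept and activated cells, up to 2 by level and 2 by ratio from each list, the 8 of highest Fano factor per library, and a fixed set with the rule genes. Ribosomal protein, mitochondrial and clone-named genes were left out. Retinal neurons were cells with 10 or more UMIs of rod, bipolar and amacrine markers and no Ptprc, and B-like cells those with 3 or more UMIs of 6 B cell genes. Those definitions, the depth ranges, the windows beside the limit, the motif and its promoters, other list members named with values, and the alternatives that left out Sparc, sub-clusters 3 and 6, or all cells with an activation UMI were chosen after seeing the data. Values of some genes are not reported here.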

Additional observations from a re-analysis of the deposited data

Results flagged for a closer look

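Gadd45b, a stress-induced gene, differed between Xist-only and Y-only cells. In Xist-only kept cells the ratio of the Igfbpl1 to the PBS library was 7.27 (95% counting interval 3.52 to 16.5), from 10 UMIs in the PBS and 35 in the Igfbpl1 library. In Y-only kept cells the ratio was 0.663 (0.436 to 0.982), from 133 and 32 UMIs. The ratios lay on opposite sides of 1, their difference was not tested, and the genes looked at in this way were the named ones. Gadd45b also led sub-cluster 5, of whose 33 cells 32 came from the PBS library.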

How the results depend on the processing

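No paired analysis was possible because each treatment had 1 library. Over 17 alternatives, 534 of 544 log2 ratios of 32 named genes kept their direction. Most of these genes were chosen for a large ratio in the same cells. The settings that changed only the minimum CPM cannot alter a ratio. The count is therefore a description and no check of the ratios. The kept share in the PBS and Igfbpl1 library was 44.2% and 14.9% with an activation limit of 5 per 10000, 81.7% and 41.9% with 20, 55.4% and 20.3% after thinning, 77.7% and 19.1% in Xist-only, 59.5% and 27.5% in Y-only cells, and 24.8% and 10.6% with no activation UMI. It was 61.5% in the PBS library with an interferon limit of 2 UMIs and 20.97% in the Igfbpl1 library in cells of 2000 UMIs or more. The genes higher in the Igfbpl1 library numbered 193 after thinning, 366 in Xist-only and 214 in Y-only cells, 348 with a minimum of 10 CPM, 367 with none and 231 with no activation UMI. The genes lower numbered 323, 443, 274, 559, 658 and 350 under the same settings, 266 with a limit of 5 and 77 with median-ratio scaling. Genes higher than in activated microglia in both libraries numbered 17, 30, 10, 21, 42 and 12 under those 6 settings, and 0 with median-ratio scaling and in cells of 2000 UMIs or more. Genes lower in both numbered 5 after thinning, 18 with a minimum of 10 CPM, 21 with none and 39 with no activation UMI. Lower minima and the settings with fewer cells test other numbers of genes. After thinning the rule was applied again, so a different set of cells was kept. The cause of the remaining shifts was not tested. The direction of Mgarp turned with a gate that left out Sparc (log2 ratio -0.14) and that of Nek6 with no activation UMI (0.0047). The small log2 ratios of Igf1r and Tnf changed sign under 5 and 3 alternatives, to -0.31 and 0.46 at most, both in Xist-only cells, and the cause was not tested. Genes under a mean of 50 CPM were not called in the values reported.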
